A study of Rattus norvegicus with 6 samples.

Results

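The Rab GTPases, the largest family of small G proteins, were described in brain tissue labelled prefrontal cortex, from aged rats. They were taken as the genes whose symbol is Rab followed by a number and at most 1 letter and 1 further digit. This rule found 56 genes among the 30076 gene symbols of the 6 deposited tables. Of the 56 genes, 49 had a row of their own in all 6 libraries and 7 shared a row with a neighbouring gene in at least 1 library. The 39 of those 49 with a mean of at least 1 FPKM (fragments per kilobase of transcript, scaled to the mapped fragments of the library) were tested, and the other 10 lay below that level.

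RNA was taken from a coronal slice of 1 mm, labelled prefrontal cortex, of 6 male F344 rats aged 18 months, with 1 library from each rat. The 3 manipulated rats had cranial osteopathic manipulation, a treatment given to the head by hand, over 7 days under 1.5 to 3% isoflurane. The 3 untreated rats had no manipulation, and they too were anaesthetised. The study asked whether this treatment goes with a change in gene expression in aged rats. Libraries 1, 2 and 3 are the untreated rats and libraries 4, 5 and 6 the manipulated rats, and values below are given in that order.

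A Rab protein is a molecular switch on a membrane. Bound to GTP it recruits effectors that move, tether and fuse vesicles, and it is turned on by exchange factors and off by GTPase-activating proteins, while an escort protein, a prenyl transferase and the dissociation inhibitors GDI carry its lipid tail to and from membranes. Each compartment has its own Rabs, and neurons use Rab3 and Rab27 proteins on synaptic and dense-core vesicles, Rab5, Rab4 and Rab11 proteins to recycle receptors, and Rab7 on the way to the lysosome.

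The promoters show a sequence feature that the choice of members did not use. RefSeq promoters of the assembly GRCr8 were matched by symbol for 46 of the 56 genes, which gave 47 promoters. Position was not used, and the promoter of Rab5a lies on chromosome 9 of GRCr8 but its measured row on chromosome 14 of Rnor_6.0. The 250 bases before each start were read. The GC box GGGCGG, counted on both strands, stood in 74.5% of Rab promoters, against 38.9% of the promoters of protein-coding genes and 30.5% of all promoters. Neither background was limited to genes expressed in these libraries, so the feature is not shown to be particular to Rab genes. The TATA box TATAAA was in 0 of the 47 and in 12.1% of protein-coding promoters. A Rab promoter had a median of 17 CpG dinucleotides and 62.4% G and C, against 8 and 54.0% for protein-coding genes. Rab3a is shown as the most abundant member, Rab3c as the member with the next smallest p after Rab37, and Rab27b as the tested member with the opposite sign, with GC boxes on either strand in capitals. They lie at chr16:18722274-18722523, chr2:43575944-43576193 and chr18:65938584-65938833 of GRCr8, all on the minus strand, and are written 5′ to 3′ on that strand.
Rab3a: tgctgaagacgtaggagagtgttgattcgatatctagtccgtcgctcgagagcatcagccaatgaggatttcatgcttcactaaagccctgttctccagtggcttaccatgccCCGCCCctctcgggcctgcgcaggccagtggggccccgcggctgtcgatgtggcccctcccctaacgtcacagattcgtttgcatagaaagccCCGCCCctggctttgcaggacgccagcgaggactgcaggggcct
Rab3c: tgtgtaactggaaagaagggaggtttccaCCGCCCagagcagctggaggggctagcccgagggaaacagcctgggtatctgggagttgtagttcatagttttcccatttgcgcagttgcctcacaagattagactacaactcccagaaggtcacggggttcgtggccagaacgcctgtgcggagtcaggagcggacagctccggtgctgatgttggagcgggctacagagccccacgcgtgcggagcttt
Rab27b: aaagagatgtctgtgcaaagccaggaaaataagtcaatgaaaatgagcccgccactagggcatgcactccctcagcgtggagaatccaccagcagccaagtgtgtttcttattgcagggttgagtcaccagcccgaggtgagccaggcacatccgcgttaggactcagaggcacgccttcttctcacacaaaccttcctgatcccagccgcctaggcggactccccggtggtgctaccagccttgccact
The Rab3a promoter holds 2 GC boxes and 16 CpG dinucleotides, the Rab3c promoter 1 and 13, and the Rab27b promoter 0 and 9. The overlap of a GC box with other motifs was not examined, and no binding or methylation was measured here.

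Libraries differed in ways that may touch every Rab value. Assembled loci without a gene name numbered 83180, 51528 and 66414 in untreated and 35559, 17102 and 36546 in manipulated libraries. The part of this difference in any Rab value was not tested. The median FPKM of the 10642 tested genes was 3.98 to 5.49 in untreated and 2.75 to 4.07 in manipulated libraries, with library 6 the lowest, so that the median fold change of all tested genes on the log2 scale was -0.36 as deposited and -0.0036 after median-ratio scaling, which divides each library by the median ratio of its genes to their geometric mean over libraries. Cortical glutamatergic markers were present in every library, with 9 of 9 genes measured and a summed level of 102 to 154 FPKM in untreated and 77.8 to 120 FPKM in manipulated rats. Thalamic and hypothalamic markers had a summed level of 158 to 228 FPKM over 11 of 12 genes in untreated rats and 21.5 to 84.5 FPKM in manipulated rats, and all 11 tested genes were lower. Striatal markers had 45.2 to 69.3 FPKM over 10 of 12 genes in untreated and 78.2 to 200.3 FPKM in manipulated rats, and all 9 tested genes were higher, with Rarb listed at 0 in untreated rats. The sum over blood cell markers, with 2 of 3 genes measured, was also apart, at 94.0 to 113 and 40.9 to 55.7 FPKM. The 2 tested genes were lower, with log2 differences of -1.13 and -0.049. The sum over ependymal markers, with 6 of 7 genes measured, was apart at 4.99 to 8.61 and 9.77 to 10.2 FPKM. Of 4 tested ependymal genes 3 were higher and 1 lower. All 8 tested choroid plexus genes and 7 of 9 GABAergic interneuron genes were higher in manipulated rats, with summed levels that overlapped between groups. The part of these markers in any Rab result was not tested, and in tissue RNA fewer cells of a type and less RNA per cell cannot be told apart.

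Rab genes as a family were lower in manipulated rats by about as much as other genes. Of the 39 tested Rab genes 38 (97.4%) had a lower mean log2 level in manipulated rats, against 87.0% of all tested genes, and the median log2 difference (manipulated minus untreated) was -0.40 against -0.36 for all genes. Rab37 fell and was the 1 Rab gene past an adjusted p of 0.05, by limma on log2(FPKM + 1) with Benjamini-Hochberg adjustment over all tested genes. Of all tested genes 0.357% passed, 0.0846% as higher and 0.273% as lower. At an unadjusted p under 0.05, 5 Rab genes were lower (12.8%, against 13.6% of all tested genes) and 0 were higher (against 1.47%). All 3 manipulated libraries lay below all 3 untreated ones in 11 of the 39 (28.2%), against 23.7% of all tested genes. These shares are near the background.

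With median-ratio scaling the family was divided in direction. Then 18 Rab genes were higher and 21 lower, where 50.7% of all tested genes were lower, and their median was -0.012. Groups did not overlap in 4 higher and 4 lower Rab genes (10.3% each), against 10.1% and 9.87% of all tested genes and 19.9% in either direction. None passed limma (0 of 39), where 0.291% of all tested genes did, 0.094% as higher and 0.197% as lower. At an unadjusted p under 0.05, 2 Rab genes were higher and 3 lower (5.13% and 7.69%), against 6.46% and 4.8% of all tested genes. The 4 higher ones were Rab27b, Rab30, Rab15 and Rab12, and the 4 lower ones Rab37, Rab3c, Rab2a and Rab33b. Without library 6 the median as deposited was -0.18, against -0.22 for all genes.

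**Figure D1:**
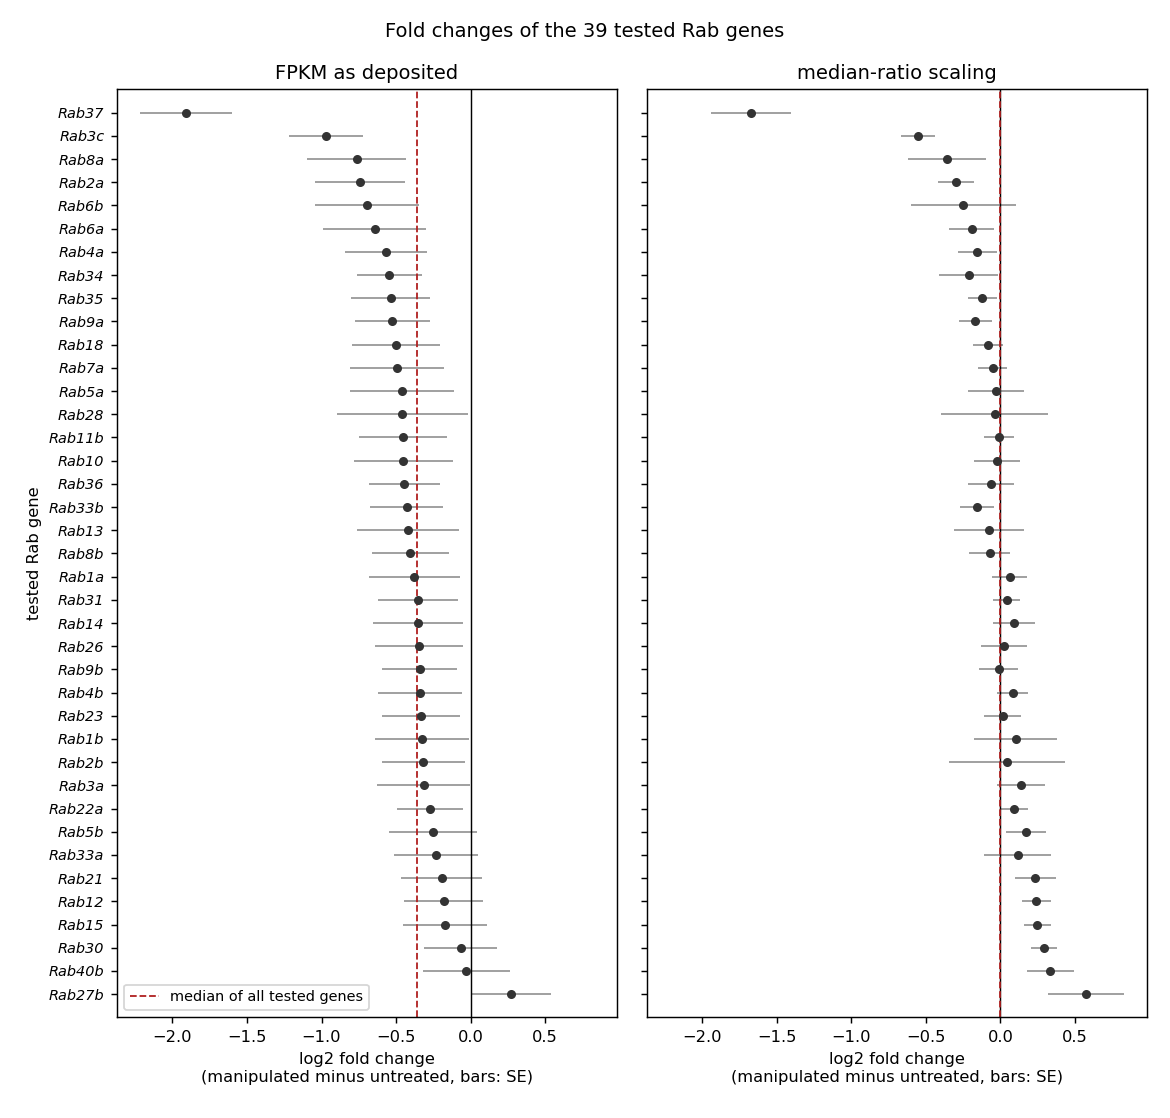
Log2 fold change (manipulated minus untreated, log2(FPKM + 1) scale) of the 39 tested Rab genes as deposited and after median-ratio scaling, with bars for the SE and a dashed line at the median of all tested genes. As deposited 38 genes lie below 0 around the dashed line at -0.36, and in both panels Rab37 and Rab3c lie lowest and Rab27b highest.

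The Rab genes with the highest levels kept much the same ranks in every library, while others moved. Among the 49 genes with their own rows, Rab1b ranked from 9 to 19 and Rab2b from 22 to 36. Agreement of ranks between libraries was not computed. FPKM is scaled by length, so levels may be set side by side. Summed over the 49 genes with their own rows, Rab transcripts came to 802, 679.9 and 808 FPKM in the untreated libraries and 616, 638 and 393 FPKM in the manipulated ones, lowest in library 6. Rab3a was first in 6 of 6 libraries, with 14.0 to 17.1% of the summed Rab FPKM in untreated and 15.9 to 19.2% in manipulated rats, so that its share overlapped between groups. Rab6a and Rab6b held the next ranks in every library, and Rab1a kept rank 8 throughout. Mean levels over the libraries reached 100 FPKM in 1 gene, lay from 10 to below 100 FPKM in 19, from 1 to below 10 FPKM in 25 and below 1 FPKM in 11.

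**Figure D2:**
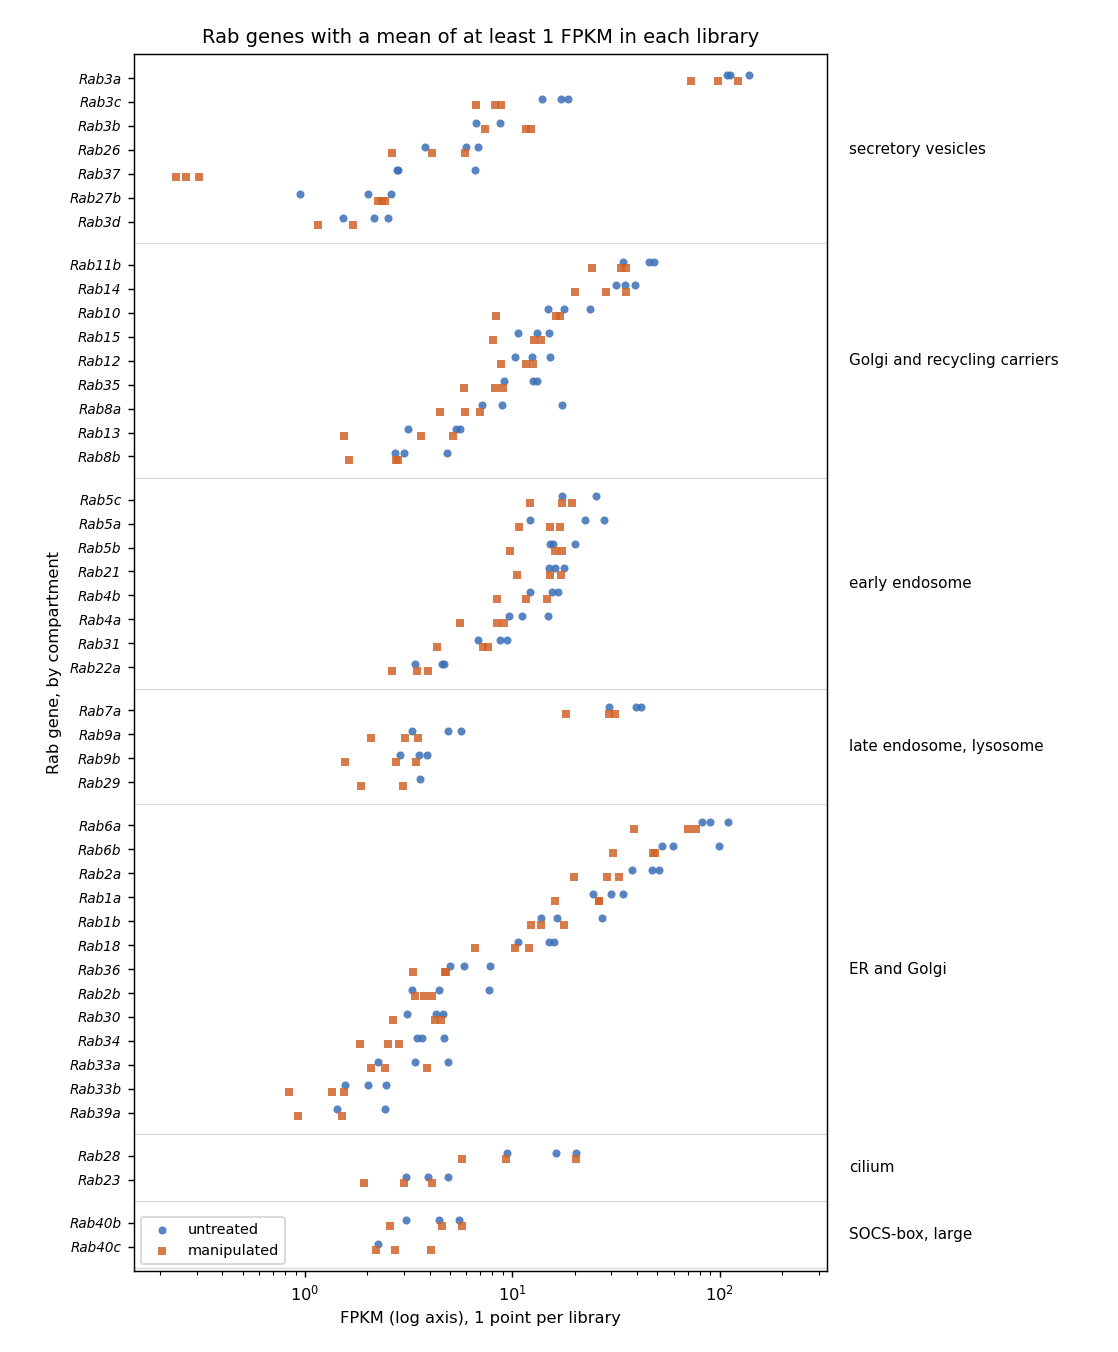
FPKM on a log axis of the 45 Rab genes with a mean of at least 1 FPKM, grouped by compartment, with 1 point for each library in which the gene has a row of its own (circles untreated, squares manipulated). Levels run from Rab3a near 100 FPKM to values near 1 FPKM, and the manipulated squares of Rab37 lie apart, near 0.3 FPKM.

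Among Rabs of secretory vesicles, Rab37 was the member with the largest difference. Rab37, which acts in regulated secretion (chromosome 10, 103703404 to 103710527, Rnor_6.0, the stretch shared by the rows of all libraries), had 2.78, 2.81 and 6.57 FPKM in untreated and 0.308, 0.240 and 0.268 FPKM in manipulated rats. Every manipulated library was low, and the groups did not overlap. The deposited intervals of single libraries also stayed apart, with 2.44 FPKM the lowest untreated bound and 0.453 FPKM the highest manipulated bound. The means were 4.05 ± 2.18 and 0.272 ± 0.0341 FPKM (SD, n = 3), a ratio of 14.9 between untreated and manipulated rats, with a log2 difference of -1.91 (SE 0.31; limma adjusted p = 0.0463). Untreated library 3 was the highest, and there the row of Rab37 began at 103644465, far before its start in the other libraries, so that it also spanned Cd300lf. Without that library the adjusted p was 0.0342. The call ended with median-ratio scaling, where the log2 difference was -1.67 and the limma adjusted p 0.121, and in the fits without library 1, 2, 4, 5 or 6, and over all settings in which the gene was tested its adjusted p ran from 7.07e-05 to 0.234. Rab37 was lower in manipulated rats under every one of these 17 settings and passed in 6. The thalamic and hypothalamic markers were lower in the same libraries, and their part in the Rab37 value was not tested.

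Rab3c stood next. Rab3c, a close relative of Rab3a on synaptic vesicles (chromosome 2, 41569596 to 41785792), had 17.2, 14.0 and 18.6 FPKM in untreated and 8.84, 8.29 and 6.71 FPKM in manipulated rats. The groups did not overlap, although the deposited interval of library 2 was wide, from 0 to 40.9 FPKM. The ratio of untreated to manipulated means was 2.08, with a log2 difference of -0.97 (SE 0.25; limma adjusted p = 0.248), and with median-ratio scaling -0.55 (SE 0.11) and 0.177. It was lower in all 19 other settings and passed in 1, with weights per library, at a limma adjusted p of 0.0238. In that setting 940 of the 10642 tested genes passed, against 38 in the main fit. In the other settings the limma adjusted p of Rab3c reached up to 0.633.

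Rab3a, the main Rab of synaptic vesicles and a regulator of transmitter release (chromosome 16, 20435101 to 20439206), had 113, 108 and 138 FPKM in untreated and 98.1, 122 and 72.5 FPKM in manipulated rats, and the groups overlapped. Its log2 difference was -0.31 (SE 0.31) as deposited and 0.14 (SE 0.16) with median-ratio scaling, so that the direction turned with the scaling. Rab3b, another vesicle Rab (chromosome 5, 128501847 to 128568188), shared its row with Nrdc and Mir761 in library 1, where that row had 16.4 FPKM, and so was measured in 5 libraries. It had 6.67 and 8.75 FPKM in untreated libraries 2 and 3 and 12.3, 11.7 and 7.36 FPKM in manipulated rats, where library 6 lay between the untreated values. After median-ratio scaling the values were 6.95 and 6.95 against 12.9, 11.6 and 11.3, and the groups did not overlap. In a fit that left out library 1 for this gene, the log2 difference was 0.37 (SE 0.31) with a limma adjusted p of 0.449, and with scaling 0.70 (SE 0.11) and 0.146. Rab3d, known from secretory granules, shared a row with Elavl3 in library 4 and had 2.51, 1.52 and 2.14 FPKM in untreated and 1.70 and 1.16 FPKM in manipulated libraries 5 and 6.

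Rab27b, which docks dense-core and synaptic vesicles (chromosome 18, 68488239 to 68644356), was the 1 tested Rab gene with a positive log2 difference. It had 2.59, 2.01 and 0.946 FPKM in untreated and 2.42, 2.34 and 2.25 FPKM in manipulated rats, so that untreated library 3 alone lay well below the rest. In library 2 the row of Rab27b began at 68271924, well before its start in the other libraries. The deposited intervals were wide in library 2, from 0 to 4.55 FPKM, and in library 5, from 0 to 5.38 FPKM. The log2 difference was 0.27 (SE 0.26), with a limma adjusted p of 0.495, and 0.57 (SE 0.25) and 0.452 with median-ratio scaling. Without library 3 the difference as deposited was 0.021, with a limma adjusted p of 0.963. Rab27a, its relative in melanosome and granule transport (chromosome 8, 79722334 to 79776221), lay just under the filter with 1.40, 1.08 and 1.08 FPKM in untreated and 0.777, 0.907 and 0.743 FPKM in manipulated rats. The groups of Rab27a did not overlap as deposited and overlapped after median-ratio scaling, and limma without the filter gave an adjusted p of 0.393. Rab26, which marks synaptic vesicles for autophagy, had 5.54 ± 1.58 and 4.21 ± 1.63 FPKM (SD, n = 3), a difference smaller than the spread.

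**Figure D3:**
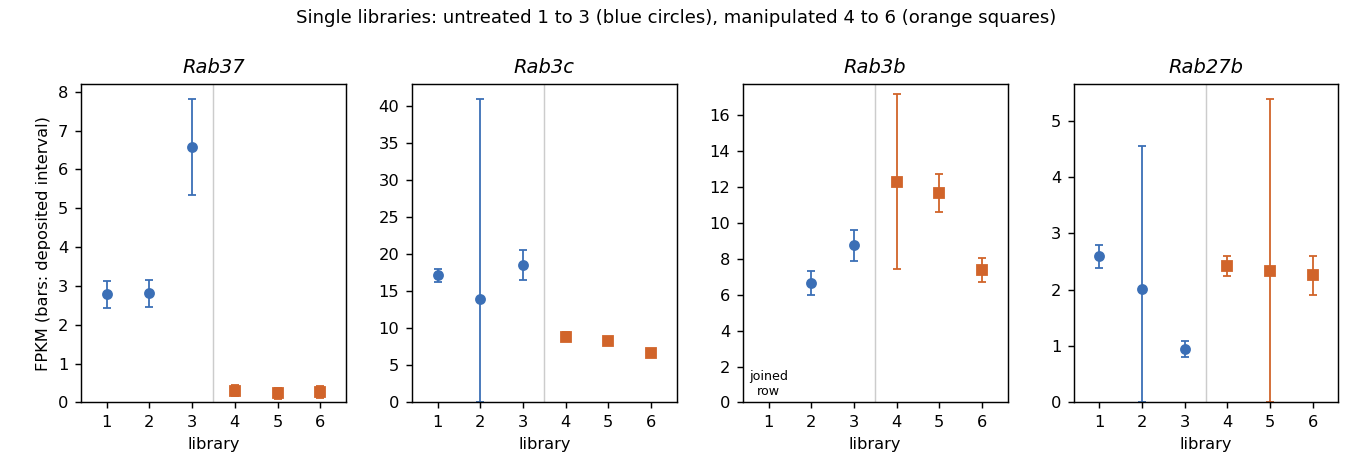
FPKM of Rab37, Rab3c, Rab3b and Rab27b in each library, with the deposited interval of each value as a bar and a gap where Rab3b shared its row. Rab37 and Rab3c are lower in libraries 4 to 6 than in 1 to 3, and the intervals of Rab3c in library 2 and of Rab27b in libraries 2 and 5 reach 0.

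The balance between relatives is a measure that does not change with the scaling of a library. For 12 subfamilies the share of a member in the summed FPKM of its relatives was compared by exact permutation of the libraries, two-sided, which with 3 against 3 cannot give a p below 0.1. The groups did not overlap in 2 of 12. No such count was made over other gene families, so there is no background to set beside it. Rab3a made up 86.8, 88.6 and 88.1% of Rab3a and Rab3c together in untreated rats and 91.7, 93.7 and 91.5% in manipulated rats, a difference of 4.47 percentage points with an exact permutation p of 0.1 and an adjusted p of 0.6 over the 12 shares. Rab27a made up 35.1, 35.0 and 53.4% of Rab27a and Rab27b in untreated and 24.3, 27.9 and 24.8% in manipulated rats, with the same exact p and adjusted p. In the 5 libraries with Rab3b, its share of Rab3a, Rab3b and Rab3c was 5.17 and 5.30% in untreated and 10.3, 8.19 and 8.503% in manipulated rats, while that of Rab3a overlapped, at 83.5 to 84.0% and 82.3 to 86.0%. The count of separate shares was 5 without library 2 and 4 without library 4.

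Shares in the other 10 subfamilies overlapped between groups. Rab6a made up 57.7 ± 10.7% of Rab6a and Rab6b in untreated and 58.8 ± 2.64% in manipulated rats (SD, n = 3). Library 2 was the lowest at 45.4%, and there the row of Rab6b began before its start in the other libraries. Untreated libraries 1 and 3 had 64.8 and 63.0%, above the manipulated values of 59.5, 61.0 and 55.9%, so that the overlap came through library 2. Rab5a made up 53.8 ± 8.23% and 50.1 ± 3.07% of Rab5a and Rab5b, and Rab7a 98.7 ± 0.111% and 98.8 ± 0.0968% of Rab7a and Rab7b. The smallest exact permutation p among these 10 was 0.2, for the shares of Rab4a and Rab33a.

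**Figure D4:**
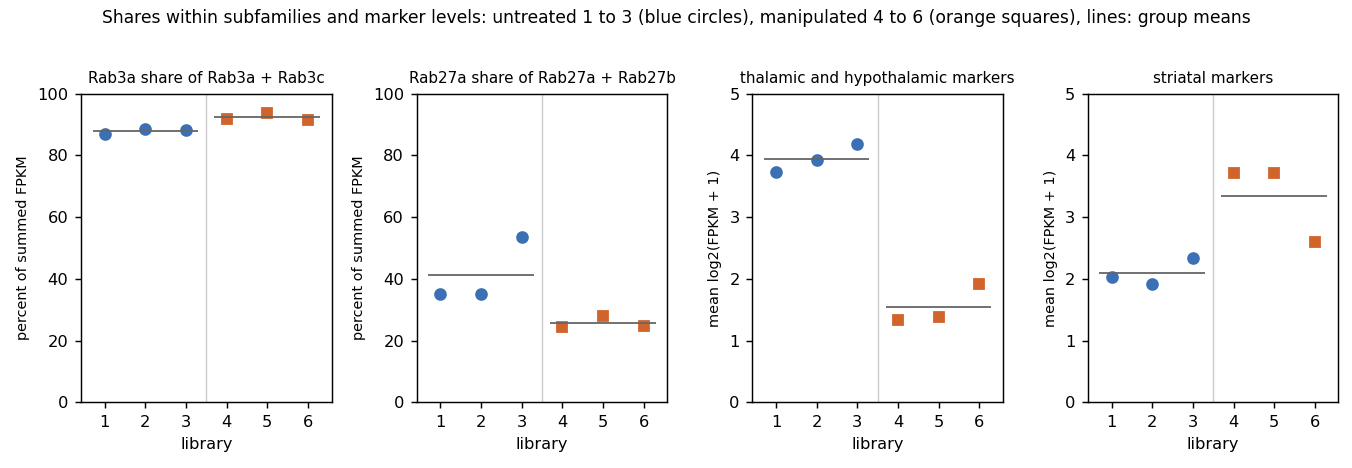
Share in percent of Rab3a in Rab3a plus Rab3c and of Rab27a in Rab27a plus Rab27b, and mean log2(FPKM + 1) of the thalamic and hypothalamic and of the striatal marker lists, in each library with group means as lines. The Rab3a share is 86.8 to 88.6% in untreated and 91.5 to 93.7% in manipulated libraries, and in the same libraries the thalamic level is 3.73 to 4.19 and 1.33 to 1.91 and the striatal level 1.92 to 2.34 and 2.59 to 3.72.

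Rabs that carry cargo from the Golgi and recycling endosomes to the plasma membrane had a median log2 difference of -0.42 over 9 tested genes of 11, all lower as deposited and 3 higher with median-ratio scaling. Rab11b, a recycling Rab enriched in brain (chromosome 7, 18598880 to 18612147), had 45.7, 34.1 and 48.1 FPKM in untreated and 33.5, 35.2 and 24.2 FPKM in manipulated rats, overlapping at library 2. Its log2 difference was -0.45 (SE 0.30), and -0.0062 (SE 0.10) with scaling. Rab14, on the route between Golgi and endosomes (chromosome 3, 14373275 to 14395362), had 38.8, 31.6 and 34.9 FPKM and 35.2, 28.2 and 20.1 FPKM, which overlapped. Rab8a, which sends vesicles to the cell surface and the cilium (chromosome 16, 19355048 to 19376776), had 8.86, 7.14 and 17.3 FPKM in untreated and 6.96, 5.89 and 4.49 FPKM in manipulated rats. The groups did not overlap as deposited, but the high value of library 3 came from a row that began at 19203539, well before the other rows. Its log2 difference was -0.76 (SE 0.33) with a limma adjusted p of 0.326. It was -0.42 without library 3 and -0.36 after median-ratio scaling, where the groups overlapped. Rab35, which acts in recycling and neurite growth (chromosome 12, 46703893 to 46718398), had 12.5, 9.07 and 13.1 FPKM against 9.001, 8.23 and 5.86 FPKM, with a log2 difference of -0.53 (SE 0.26; limma adjusted p = 0.330). The values of Rab35 at library 2 and library 4 nearly met, and after scaling the difference was -0.12 with groups that overlapped. Rab15, a neuronal endosome Rab, and Rab12, which acts in receptor degradation, were 2 of the 4 genes that lay higher in all manipulated libraries after scaling, with log2 differences of 0.25 (SE 0.09) and 0.24 (SE 0.10) and limma adjusted p of 0.406 and 0.438.

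Rabs of the early endosome had a median log2 difference of -0.34 over 7 tested genes of 9, and 5 of the 7 were higher with median-ratio scaling. Rab5a, the switch for early endosome fusion (chromosome 14, 72889038 to 72949307), had 27.8, 12.1 and 22.5 FPKM in untreated and 15.2, 16.9 and 10.7 FPKM in manipulated rats. Untreated library 2 lay among the manipulated values. Rab5c, which acts with Rab5a, shared its row with Kcnh4 in library 3, where that row had 29.9 FPKM, and had 25.3 and 17.3 FPKM in untreated libraries 1 and 2 and 17.4, 19.3 and 12.2 FPKM in manipulated rats. A fit without library 3 for this gene gave a log2 difference of -0.37 (SE 0.33). Rab4a, which speeds the fast return of receptors to the surface (chromosome 19, 56585767 to 56613075), had 11.1, 9.61 and 14.8 FPKM against 8.42, 9.09 and 5.61 FPKM. Its groups did not overlap as deposited, with a log2 difference of -0.56 (SE 0.28; limma adjusted p = 0.328), and they overlapped after scaling, at -0.15 (SE 0.13). The other tested genes of this compartment, Rab5b, Rab21, Rab4b, Rab31 and Rab22a, overlapped between groups.

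Rabs of late endosomes and lysosomes had log2 differences of -0.52 to -0.34 over 3 tested genes of 7, and none of the 3 had groups apart. Rab7a, which takes cargo to the lysosome (chromosome 4, 119910478 to 119959173), had 41.6, 29.4 and 39.6 FPKM in untreated and 29.3, 31.4 and 18.2 FPKM in manipulated rats, with a log2 difference of -0.49 (SE 0.32), and -0.053 (SE 0.10) after scaling. Rab9a, which returns receptors from late endosomes to the Golgi (X chromosome, 29525256 to 29547294), had 4.88, 3.27 and 5.63 FPKM against 3.04, 3.49 and 2.08 FPKM. Both genes overlapped through untreated library 2. Rab7b had 0.500 ± 0.126 and 0.325 ± 0.0896 FPKM (SD, n = 3), and Rab32 and Rab38, which act on pigment granules, had 0.537 FPKM or less in every library.

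Rabs of the endoplasmic reticulum and Golgi had a median log2 difference of -0.44 over 12 tested genes of 15, and -0.074 after median-ratio scaling. In 6 of the 12 the manipulated libraries lay below the untreated ones as deposited, where 23.7% of all tested genes did. After scaling 2 of the 12 were apart as lower and 1 as higher, where 9.87% and 10.1% of all tested genes were. Rab2a, which acts between these organelles and in dense-core vesicle formation (chromosome 5, 21632713 to 21696789), had 46.9, 37.9 and 51.1 FPKM in untreated and 32.7, 28.6 and 19.8 FPKM in manipulated rats. Its log2 difference was -0.74 (SE 0.30) with a limma adjusted p of 0.326, and -0.30 (SE 0.12) and 0.436 after scaling, and in both its groups stayed apart. Its rank among the 49 Rab genes was 4 in each untreated and 6 in each manipulated library.

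Rab6a, which moves vesicles within and out of the Golgi (chromosome 1, 165625058 to 165664192), had 110, 82.4 and 89.8 FPKM in untreated and 70.2, 76.6 and 38.8 FPKM in manipulated rats. Rab6b, its neuron-enriched relative (chromosome 8, 111600367 to 111668811), had 59.5, 99.1 and 52.8 FPKM against 47.7, 48.9 and 30.6 FPKM. Library 2 lay far above the others, and there the row of Rab6b began at 111581399, before its start in the other libraries. The groups of both genes did not overlap as deposited and did after scaling, where the differences were -0.19 and -0.25. As deposited they had log2 differences of -0.64 (SE 0.34) and -0.70 (SE 0.35) and limma adjusted p of 0.333 and 0.332. Rab1a, the Rab of transport from the endoplasmic reticulum to the Golgi (chromosome 14, 104475082 to 104501020), had 29.8, 24.3 and 34.3 FPKM and 26.1, 26.2 and 16.0 FPKM, which overlapped. Rab34, which acts at the Golgi and in cilium formation (chromosome 10, 65448444 to 65452177), had 3.66, 4.69 and 3.48 FPKM against 2.84, 2.51 and 1.84 FPKM, a log2 difference of -0.54 (SE 0.22; limma adjusted p = 0.326). Its groups overlapped after scaling, at -0.21. Rab30, a Golgi Rab, was the gene of this compartment that lay higher after scaling, with 0.29 (SE 0.09) and a limma adjusted p of 0.311.

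The tested Rabs of the cilium and the SOCS-box group overlapped between groups. Rab28, of photoreceptor and cilium transport, had 16.3, 9.39 and 20.2 FPKM in untreated and 20.2, 9.34 and 5.71 FPKM in manipulated rats, a wide range within both groups. Rab23, a negative regulator of hedgehog signalling, had 3.96 ± 0.897 and 3.01 ± 1.09 FPKM (SD, n = 3). Rab40b, which carries a SOCS box, had 4.33 ± 1.21 and 4.31 ± 1.60 FPKM, with a log2 difference of -0.028 as deposited and 0.34 (SE 0.16) after scaling.

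The 10 genes below the filter were Rab27a, Rab42, Rab7b, Rab44, Rab20, Rab38, Rab32, Rab19, Rab25 and Rab17. Limma without the filter called 0 of the 9 that it could fit, where it called 20 of 19611 genes, so that a call among 9 would be rare. Of the 9, 0 had an unadjusted limma p under 0.05, for which no share over all genes was counted without the filter. In 4 of the 10, Rab27a, Rab44, Rab20 and Rab38, the manipulated libraries lay below the untreated ones as deposited, where 20.1% of all genes did without a filter, and all 4 overlapped after median-ratio scaling. Rab17, known from polarised epithelia, was listed at 0 in 6 of 6 libraries, and Rab25, also an epithelial Rab, stayed at 0.0717 FPKM or less. Rab44, a large Rab of immune cells, had 0.805, 0.159 and 0.561 FPKM in untreated and 0.145, 0.145 and 0.126 FPKM in manipulated rats. Untreated library 2 lay close to the manipulated ones. Rab29, Rab39a, Rab40c and Rab43 shared rows with neighbours in 2 or 3 libraries. Of these, Rab29, a partner of the kinase Lrrk2, had a row of its own in 1 untreated library, at 3.58 FPKM, and in 2 manipulated libraries, at 2.97 and 1.85 FPKM. Rab11a, the main recycling Rab, was joined with AABR07070441.1 in all libraries and is no member. That joined row had 16.2, 22.0 and 14.4 FPKM in untreated and 9.87, 10.5 and 6.44 FPKM in manipulated rats.

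Genes that load, switch and read Rabs differed about as much as the Rabs did. Of 115 genes on lists of such factors 75 were tested, 72 were lower and 3 higher as deposited, the median log2 difference was -0.35, and 0 passed limma, while 9 had an unadjusted p under 0.05 (12.0%, against 15.1% of all tested genes in either direction). With median-ratio scaling 37 were higher and 38 lower. Exchange factors, which turn Rabs on, had a median of -0.44 over 21 tested genes, and 8 of the 21 had manipulated libraries below all untreated ones (38.1%, against 23.7%). After median-ratio scaling their median was -0.096 and 3 of the 21 lay apart as lower (14.3%, against 9.87%). Dennd1b, an exchange factor of Rab35, had 4.90 ± 1.03 and 2.10 ± 0.268 FPKM (SD, n = 3), with a log2 difference of -0.91 (SE 0.22; limma adjusted p = 0.209). Hps4, part of the exchange factor of Rab32 and Rab38, had 5.08 ± 0.855 and 2.53 ± 0.433 FPKM (limma adjusted p = 0.271), and its groups overlapped after scaling.

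GTPase-activating proteins had a median of -0.31 over 27 tested genes, effectors -0.27 over 20, and the group of GDI, escort and prenylation genes -0.42 over 6, and after scaling these medians were 0.015, 0.067 and -0.031. Tbc1d15, which acts on Rab7, had 4.39 ± 0.671 and 2.85 ± 0.175 FPKM (SD, n = 3), and Tbc1d5, also a Rab7 regulator, 9.996 ± 4.65 and 4.79 ± 1.73 FPKM, both with a limma adjusted p of 0.326. Among effectors, Rufy1 of the Rab4 and Rab14 endosomes had 4.45 ± 0.718 and 2.62 ± 0.546 FPKM, and Appl2 of Rab5 endosomes 6.09 ± 1.12 and 3.71 ± 1.22 FPKM. Rabggta, a subunit of the enzyme that attaches the lipid tail, had 5.69 ± 0.730 and 3.11 ± 0.622 FPKM, with a log2 difference of -0.71 (SE 0.22; limma adjusted p = 0.310). Gdi2 had 26.4 ± 4.88 and 17.0 ± 5.41 FPKM. Lrrk2, the kinase of several Rabs, had 2.67 ± 0.808 and 2.66 ± 0.890 FPKM, with a log2 difference of -0.015 as deposited and 0.31 after scaling.

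How reads shared by near-identical relatives such as Rab1a and Rab1b or Rab6a and Rab6b were assigned is not given in the sources used here, so the split within such pairs is uncertain.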

How the data were processed

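RNA of 6 libraries was read as 6 gene tables. The authors deposited FPKM values with the bounds of an interval and a status, per the file headers, and the submitters' processing notes name STAR 2.7.3a, Cufflinks without a version, and the build Rnor_6.0. The sources used here do not give the annotation release, the strandedness, the read totals or the handling of shared reads, so the depth is unknown, and without strand antisense reads cannot be told apart.

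FPKM was summed per symbol and library. The 30076 symbols included 3254 with a row joined to another gene, 163 at several places, 32 without a row in some library and 5 with a failed estimate, which left 26622. Those reaching a mean of 1 FPKM (10642) entered limma 3.58.1 in R 4.3.3 on the scale log2(FPKM + 1), with a mean-variance trend, two-sided, with Benjamini-Hochberg adjustment over all tested genes. This scale understates changes of low genes. On simulated data with 10642 genes and 3 libraries a group, 18.4% of simulated log2 changes of 1 and 73.8% of those of 2 were found, with a mean of 6.4 false calls. Whether these rates hold for the deposited libraries, where 87.0% of all tested genes had a fold change below 0, was not tested. Shares were tested by exact permutation (scipy 1.17.1). Each library is 1 rat, and the labels give no batch.

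Members and lists were chosen with earlier results of these data known. The genes named were the Rab genes past limma, the 10 with the highest mean, the 8 lower and 4 higher with the smallest p (1 was higher), the Rab3 and Rab27 relatives, any Rab gene above all untreated libraries (0 as deposited), and 2 tested genes with the smallest p of each factor list. Other genes named were chosen after their values were seen.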

Additional observations from a re-analysis of the deposited data

How the results depend on the processing

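Alternatives changed the pseudocount, filter, scaling, variance model, library weights and rows kept, or left out 1 library. Added after the data were seen were a limit of 1.5 times on the change of a row's span, which drops Rab37, Rab8a and Rab27b, and summed rows together with median-ratio scaling. No paired analysis was possible because the labels give each rat its own number. Over all genes, 38 passed, against 940 with weights per library, 84 with a robust prior, 25 with a filter of 0.1 FPKM and 20 with no filter, and 28 to 56 without 1 library. Of the Rab genes 1 passed, against 2 with weights per library and 0 with median-ratio or upper-quartile scaling, with summed rows with or without scaling, with a filter of 0.1 or 5 FPKM, with no filter, or with the limit on row span, and 0 to 1 without 1 library. With a filter of 5 FPKM or the limit on row span Rab37 was not in the test, and for the others the cause was not tested. The Rab genes with groups apart numbered 11 and 11 to 25 without 1 library, with 25 of 39 without untreated replicate 2 and 18 of 39 without manipulated replicate 5, where 57.7% and 41% of all tested genes lay apart as lower. Their median log2 difference was -0.40, and -0.012 with median-ratio scaling, -0.026 with upper-quartile scaling, -0.0062 with summed rows and scaling and -0.52 to -0.18 without 1 library. Separate subfamily shares numbered 2, and 1 among subfamilies of at least 5 FPKM, which leaves out Rab27, and 2 to 5 without 1 library. For single named genes 295 results under an alternative kept direction and side of the threshold, which for every gene but Rab37 meant no call. Rab37 alone was called in the main fit, and it lost the call in 11 of its 17 settings. Rab3c gained a call in 1 setting, and 9 results changed sign. Those 9 were Rab3a (0.14 with median-ratio scaling, with and without summed rows, and 0.12 with upper-quartile scaling), Rab14 (0.089 and 0.071) and Rab1a (0.062 and 0.044). Intervals of single libraries are the authors', and without counts no lower limit of detection could be given.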
